A study of Homo sapiens with 80 samples.

Results

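Genes of cardiac mesoderm are described here in human pluripotent stem cells on the way to cardiomyocytes: MESP1, MESP2, PDGFRA, APLNR, SMARCD3 and MYOCD. They were chosen by name from the TPM tables (TPM is a read count divided by exon length and scaled so that every library has the same sum), and all 6 were present among the 43388 genes of both tables. Cells were differentiated with CHIR99021, a GSK3 inhibitor that activates WNT signalling, on day 0 and then with IWP2, which blocks WNT secretion. The purity class of a differentiation, high or low, was set on day 16, when cells were stained for cardiac troponin T and measured by flow cytometry.

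The poly(A) experiment used WTC11, a human induced pluripotent stem cell line, with IWP2 added on day 2 and removed on day 4. It held 25 high purity wells, all from 1 differentiation at passage 52, and 31 low purity wells, all from 1 differentiation at passage 69. Each class had 4 wells on each of days 0, 2, 4 and 6. Days 8, 10, 13 and 16 had 3, 1, 2 and 3 high purity wells and 4, 4, 4 and 3 low purity wells. Purity, passage and differentiation cannot be told apart in this experiment, and the p-values measure the spread between wells of a differentiation only. The total RNA experiment had 1 high and 1 low purity differentiation of each of 3 lines, with 1 library per time point. WTC11 (high purity passage 81, low purity passage 69) was sampled on days 0, 2, 4 and 6. H9, an embryonic stem cell line (high 58, low 55), and IMR90-4, an induced pluripotent line (high 55, low 75), received IWP2 on day 3 and were sampled on days 0, 3, 5 and 7. These 4 time points are called stages 1 to 4. The labels name no genetic modification. Every differentiation was given both agents, but cells sampled before an agent was added had not received it, as on day 0 in WTC11, before CHIR99021. The labels do not say whether the passage 69 cells of the 2 experiments came from 1 differentiation.

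MESP1 and MESP2 encode related basic helix-loop-helix transcription factors that are switched on for a short time as cells leave the primitive streak. MESP1 marks the earliest heart progenitors and MESP2 is best known for setting segment borders in the presomitic mesoderm. PDGFRA is a receptor for platelet-derived growth factors and APLNR is the receptor for the peptides apelin and ELABELA; both lie on the surface of early mesoderm cells and are used to sort cardiac progenitors. SMARCD3 encodes BAF60C, a subunit of the BAF chromatin remodelling complex in the developing heart, and MYOCD encodes myocardin, a cofactor that lets SRF activate muscle genes.

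In RefSeq on GRCh38.p14, MESP1 (chr15:89732446-89751249, minus strand) and MESP2 (chr15:89776332-89778754, plus strand) are neighbours. PDGFRA lies at chr4:54229293-54298245, APLNR at chr11:57233591-57237250, SMARCD3 at chr7:151238780-151277149 and MYOCD at chr17:12665890-12768949. The exons of MESP1 and MESP2 share a stretch of 122 bases in the coding part of exon 1, which is printed because reads from inside it could be given to either gene. It was read from the GENCODE 29 transcripts, and the capitals mark the 7 bases that differ, while 115 (94.3%) are identical.
MESP1 bases 265 to 386 of the reading frame, chr15:89750846-89750967, minus strand: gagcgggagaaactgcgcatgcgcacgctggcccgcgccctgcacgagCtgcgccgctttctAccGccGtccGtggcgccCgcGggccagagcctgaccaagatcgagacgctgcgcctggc
MESP2 bases 262 to 383 of the reading frame, chr15:89776619-89776740, plus strand: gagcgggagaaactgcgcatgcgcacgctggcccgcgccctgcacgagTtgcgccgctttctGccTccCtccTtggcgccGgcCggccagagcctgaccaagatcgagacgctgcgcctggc
The longest runs without a difference were 48, 38 and 23 bases. How reads that match both genes were treated is not given in the sources used here, so the split of reads between MESP1 and MESP2 is partly uncertain. The RefSeq span of MESP1 also overlaps that of WDR93 on the other strand, and whether counting used strand is not given.

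The RefSeq promoter table held 6 windows for 3 of the 6 genes (MESP2, PDGFRA and SMARCD3). MESP2 is shown because it is a known target of T-box factors and alone among the 3 held their motif. Its 250 bases before the start carry the letters of the T-box core, AGGTGT on either strand, at 2 places that begin 150 and 79 bases upstream, in capitals.
MESP2 promoter, chr15:89776082-89776331, plus strand: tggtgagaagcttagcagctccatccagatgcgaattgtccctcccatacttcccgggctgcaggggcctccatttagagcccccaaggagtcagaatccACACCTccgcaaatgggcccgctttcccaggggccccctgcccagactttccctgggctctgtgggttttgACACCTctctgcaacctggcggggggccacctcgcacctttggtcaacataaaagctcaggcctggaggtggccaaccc
AGGTGT was found in 9.57% of 35116 windows of this length over all genes, and in none of the 2 windows of PDGFRA or the 3 of SMARCD3. The TCF/LEF core CTTTGA, on either strand, was absent from the MESP2 window and present in 11.2% of all windows. A match is a description of the letters and not evidence of binding.

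Poly(A) libraries held 6579715 to 18143597 reads and total RNA libraries 17990882 to 40357968. The summed TPM of 7 pluripotency markers in the poly(A) wells was 5681 to 5870 in the high purity class on day 0 and 34.2 to 48.6 on day 16. The summed TPM of 10 cardiomyocyte markers on day 16 was 12563 to 14673 in high and 4589 to 6816 in low purity wells, and that of 10 epicardial and stromal markers was 386 to 469 against 8722 to 11846. The H9 low purity differentiation stood apart: its 10 cardiomyocyte markers summed to 511 TPM on day 3 and 360.2 on day 7, while the other 5 differentiations had 11.4 to 65.9 at stage 2 and 1106 to 4851 at stage 4. In bulk RNA, fewer cells of a type and less RNA per cell cannot be told apart.

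MESP1 was on in both WTC11 differentiations on day 2, was still on in high purity wells on day 4, and had fallen in low purity wells by then. On day 0 it had 0 reads in all 4 high purity wells and 0, 0, 0.114 and 0.131 TPM in those of low purity. On day 2 the high purity wells had 3.21, 3.34, 4.78 and 4.94 TPM (mean 4.07 ± 0.92, SD, n = 4) and the low purity wells 4.86, 5.05, 7.01 and 7.16 (6.02 ± 1.23). The 2 classes overlapped on day 2, with both of the highest wells in the low purity class. Day 2 was at least 14.59-fold higher than day 0 in the high purity class, with day 0 set to a floor of 3 reads per library. On day 4 the high purity wells had 4.58, 5.42, 5.85 and 6.62 TPM (5.62 ± 0.851, n = 4), and the low purity wells had 0.117, 0.128, 0.263 and 0.577 (0.271 ± 0.214), from 8 reads in all. No low purity well reached any high purity well. By day 6 MESP1 stood at 0.106 to 0.5 TPM in high purity wells and at 0 in all 4 low purity wells, and from day 8 to day 16 no well exceeded 1.16 TPM.

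Differences are given as log2 of TMM-scaled TPM with 1 added, which understates the change of low genes, and a gene was called at an adjusted p under 0.05 (limma-trend, Benjamini-Hochberg over 25664 genes) with an absolute log2 difference of at least 1. MESP1 rose from day 0 to day 2 in both classes, by 2.37 (SE 0.15, adjusted p = 4.07e-18) in high and by 2.69 (SE 0.15, adjusted p = 4.75e-20) in low purity wells. From day 2 to day 4 it fell by 2.47 (SE 0.15, adjusted p = 1.07e-18) in low purity wells, while the high purity change was 0.30 (adjusted p = 0.105). The difference between these 2 changes was 2.76 (SE 0.21, adjusted p = 2.23e-14). The high purity wells then fell by 2.34 from day 4 to day 6 (SE 0.15, adjusted p = 2.3e-17), so that the decline came 1 sampling point later than in low purity wells. On day 4 itself MESP1 was 2.35 higher in high purity wells (SE 0.15, adjusted p = 2.43e-17). On day 2 it was −0.42 (adjusted p = 0.0251), short of the fold threshold. MESP1 was not called on day 6 (0.33) or day 8 (0.61), where the classes held 11 against 0 and 21 against 2 reads. With 0.1 in place of 1 added it was called higher in high purity wells on both days (1.73 and 2.29). It was also called on recovered reads, at 4.37 and 3.25 with edgeR (adjusted p = 0.00785 and 0.00073) and 3.31 and 3.55 with DESeq2 (adjusted p = 0.0146 and 0.00437). The day 4 to 6 difference between classes (−2.02, SE 0.21, adjusted p = 2.35e-10) was lost when recovered reads were tested, at −0.0011 with edgeR (adjusted p = 0.65) and −1.11 with DESeq2 (adjusted p = 0.617).

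MESP2 was low in every poly(A) well. Its highest values were 2.24 TPM on day 2 in the low purity class and 1.97 TPM on day 4 in the high purity class. On day 4 the high purity wells had 0.457, 1.57, 1.68 and 1.97 TPM (1.42 ± 0.663, n = 4, 3 to 14 reads) and the low purity wells 0, 0.193, 0.422 and 0.686. The classes overlapped through 1 high purity well, and the difference of 0.82 (SE 0.21, adjusted p = 0.00148) did not reach the fold threshold. It was 2.02 with 0.1 in place of 1 added (adjusted p = 0.0152), 2.05 with edgeR on recovered reads (adjusted p = 0.0282) and 1.04 without high purity well 4, and was called in each. It stayed uncalled with DESeq2 on recovered reads, with other scaling, with only the compared groups fitted, and without any other single well. MESP2 rose from day 0 to day 2 in low purity wells (1.09, SE 0.21, adjusted p = 2.06e-05) and fell from day 4 to day 6 in high purity wells (−1.11, SE 0.21, adjusted p = 3.07e-05). Without low purity well 1 of day 2 the low purity rise was 0.92 and was not called. The change from day 2 to day 4 differed between classes by 1.05 (SE 0.30, adjusted p = 0.00485), but that call was lost on leaving out any of 7 single wells: high purity wells 1 and 3 of day 2 (0.95 and 0.85), 1, 2 and 3 of day 4 (0.99, 0.98 and 0.97), low purity well 1 of day 2 (0.89) and low purity well 2 of day 4 (0.93). It was also lost on recovered reads with edgeR (2.38, adjusted p = 0.0794) and DESeq2 (2.47, adjusted p = 0.128), and with only the compared groups in the limma fit (1.07, adjusted p = 0.0545).

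**Figure D1:**
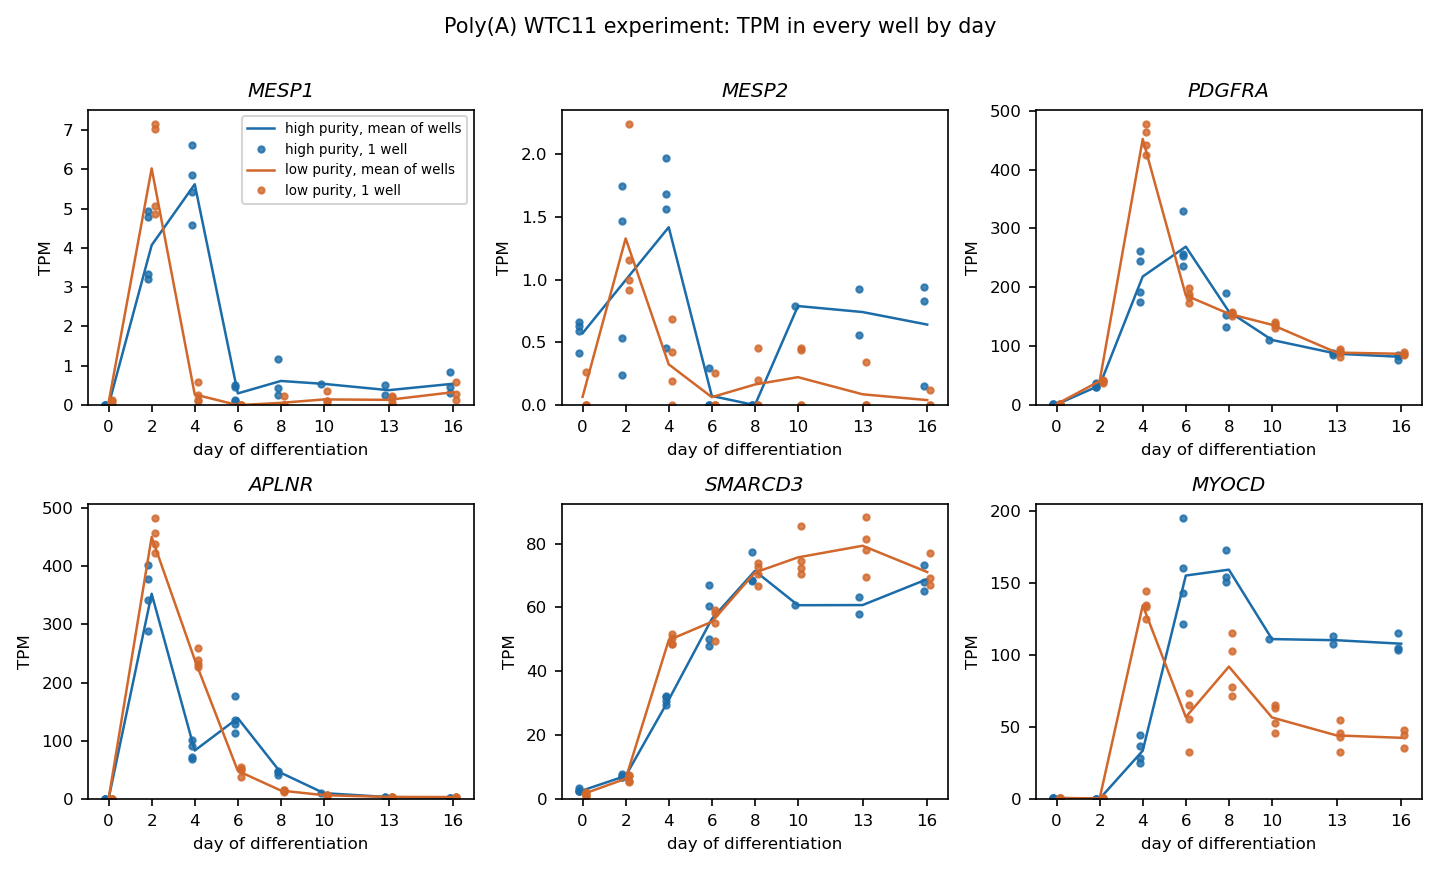
TPM of the 6 genes in each poly(A) WTC11 well (points) and the mean per class (lines) by day of differentiation, high and low purity. MESP1 on day 4 lay between 4.58 and 6.62 TPM in high purity wells and between 0.117 and 0.577 in low purity wells, while MYOCD on the same day lay between 25.0 and 44.2 in high and between 125 and 145 in low purity wells.

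APLNR, the apelin receptor, was the gene of the 6 with the sharpest onset: it was under 1 TPM on day 0 and at 288 TPM or more in every well on day 2. The high purity wells had 288, 342, 378 and 401 TPM on day 2 (352 ± 49, n = 4) and the low purity wells 422, 438, 457 and 483 (450 ± 26.4). All low purity wells lay above all high purity wells on that day, although the difference of −0.29 (adjusted p = 0.0484) was under the fold threshold. On day 4 the high purity wells had 69.3, 72.0, 90.4 and 101 TPM (83.3 ± 15.2) and the low purity wells 227, 231, 239 and 260 (239 ± 14.5). On day 6 the order was turned, with 114, 130, 136 and 176 TPM (139 ± 26.5) in high against 37.3, 49.8, 51.5 and 55.1 (48.4 ± 7.73) in low purity wells. On day 8 the high purity wells still held 41.3 to 47.7 TPM and the low purity wells 12.4 to 15.9, and by day 16 both classes lay between 1.76 and 4.41. The classes did not overlap on days 4, 6 and 8.

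APLNR rose from day 0 to day 2 by 8.05 in high and by 8.51 in low purity wells (SE 0.12 for both, adjusted p = 1.53e-41 and 1.7e-42). It was lower in high purity wells on day 4 (−1.52, SE 0.12, adjusted p = 1.63e-14) and higher on day 6 (1.48, SE 0.12, adjusted p = 3.96e-14) and day 8 (1.78, SE 0.13, adjusted p = 1.1e-15). In high purity wells it fell from day 2 to day 4 by 2.19 and its change from day 4 to day 6 was 0.65, under the fold threshold. In low purity wells it fell from day 4 to day 6 by 2.35. The change from day 2 to day 4 differed between classes by −1.23 (SE 0.17, adjusted p = 9.24e-08) and that from day 4 to day 6 by 3.00 (SE 0.17, adjusted p = 1.14e-18). From day 8 to day 16 APLNR fell by 3.71 in high and by 1.62 in low purity wells, a difference of −2.09 (SE 0.19, adjusted p = 4.16e-12).

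PDGFRA, which binds platelet-derived growth factors, was at 1.01 to 1.81 TPM on day 0 and rose at each of the next 2 sampling points. On day 2 the high purity wells had 30.3, 30.6, 36.1 and 36.9 TPM (33.5 ± 3.48, n = 4) and the low purity wells 37.8, 40.4, 41.7 and 43.4 (40.8 ± 2.36). On day 4 they had 175, 192, 244 and 263 (218 ± 41.6) against 424, 442, 464 and 478 (452 ± 23.7), so that every low purity well was above every high purity well. On day 6 the high purity wells had 237, 253, 257 and 329 TPM (269 ± 40.9) and the low purity wells 173, 184, 189 and 199 (186 ± 10.7), again without overlap but in the other order. PDGFRA was lower in high purity wells on day 4 (−1.06, SE 0.09, adjusted p = 2.75e-13). Without high purity well 3 of day 4 this difference was −0.97 and fell short of the fold threshold. The day 6 difference of 0.50 (adjusted p = 1.23e-05) did not reach the threshold. The low purity wells fell by 1.33 from day 4 to day 6 (SE 0.09, adjusted p = 2.56e-16) while the high purity change was 0.22 (adjusted p = 0.0512), and these changes differed by 1.56 (SE 0.13, adjusted p = 2.08e-13). On days 8, 13 and 16 the class differences were at most 0.25 on the log2 scale, and on day 10, which was not tested, the high purity well had 110.7 TPM and the low purity wells 131 to 141.

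SMARCD3, the BAF60C subunit gene, climbed to a plateau and stayed there. On day 4 the high purity wells had 29.5, 30.7, 31.9 and 32.3 TPM (31.1 ± 1.25, n = 4) and the low purity wells 48.4, 48.4, 50.5 and 51.7 (49.8 ± 1.63). The wells did not overlap, but the difference of −0.65 (SE 0.11, adjusted p = 4.57e-06) was under the fold threshold. SMARCD3 rose from day 0 to day 2 (1.14 in high and 1.47 in low purity wells) and from day 2 to day 4 (1.85 and 2.74). From day 8 to day 16 the wells of both classes lay between 58.1 and 88.2 TPM, and no later step or class difference was called.

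MYOCD, the SRF cofactor gene, followed MESP1 in time. It was under 1 TPM on day 2 in every well (0.142 to 0.252 in high and 0.308 to 0.665 in low purity wells). On day 4 the high purity wells had 25.0, 28.5, 36.8 and 44.2 TPM (33.6 ± 8.61, n = 4) and the low purity wells 125, 134, 135 and 145 (135 ± 7.81). On day 6 they had 122, 143, 161 and 196 (155 ± 31.2) against 32.8, 55.9, 65.5 and 73.7 (57 ± 17.7). The wells of the 2 classes overlapped on neither day, and the order of the classes was turned between them. On day 16 the high purity wells had 103, 105 and 115 TPM (108 ± 6.46, n = 3) and the low purity wells 35.4, 44.7 and 47.7 (42.6 ± 6.42, n = 3).

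From day 2 to day 4 MYOCD rose by 4.75 in high and by 6.46 in low purity wells (SE 0.17 for each, adjusted p = 1.89e-27 and 9.82e-33). From day 4 to day 6 it rose by 2.10 in high (adjusted p = 1.57e-14) and fell by 1.34 in low purity wells (adjusted p = 5.39e-09), and these changes differed by 3.45 (SE 0.23, adjusted p = 5.31e-16). MYOCD was lower in high purity wells on day 4 (−1.99, SE 0.17, adjusted p = 1.01e-13) and higher on day 6 (1.45, adjusted p = 7.32e-10), day 8 (1.04, adjusted p = 4.43e-06), day 13 (1.51, adjusted p = 4.13e-08) and day 16 (1.55, adjusted p = 3.48e-09). The day 8 call was lost without high purity well 4 (0.97), low purity well 1 (0.94) or low purity well 4 (0.97) of that day, and with TPM left unscaled (0.81). The class difference in the change from day 2 to day 4 (−1.70, SE 0.23, adjusted p = 1.01e-07) was not called on recovered reads, where it was −0.80 with edgeR (adjusted p = 0.43) and −0.77 with DESeq2 (adjusted p = 0.182).

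**Figure D2:**
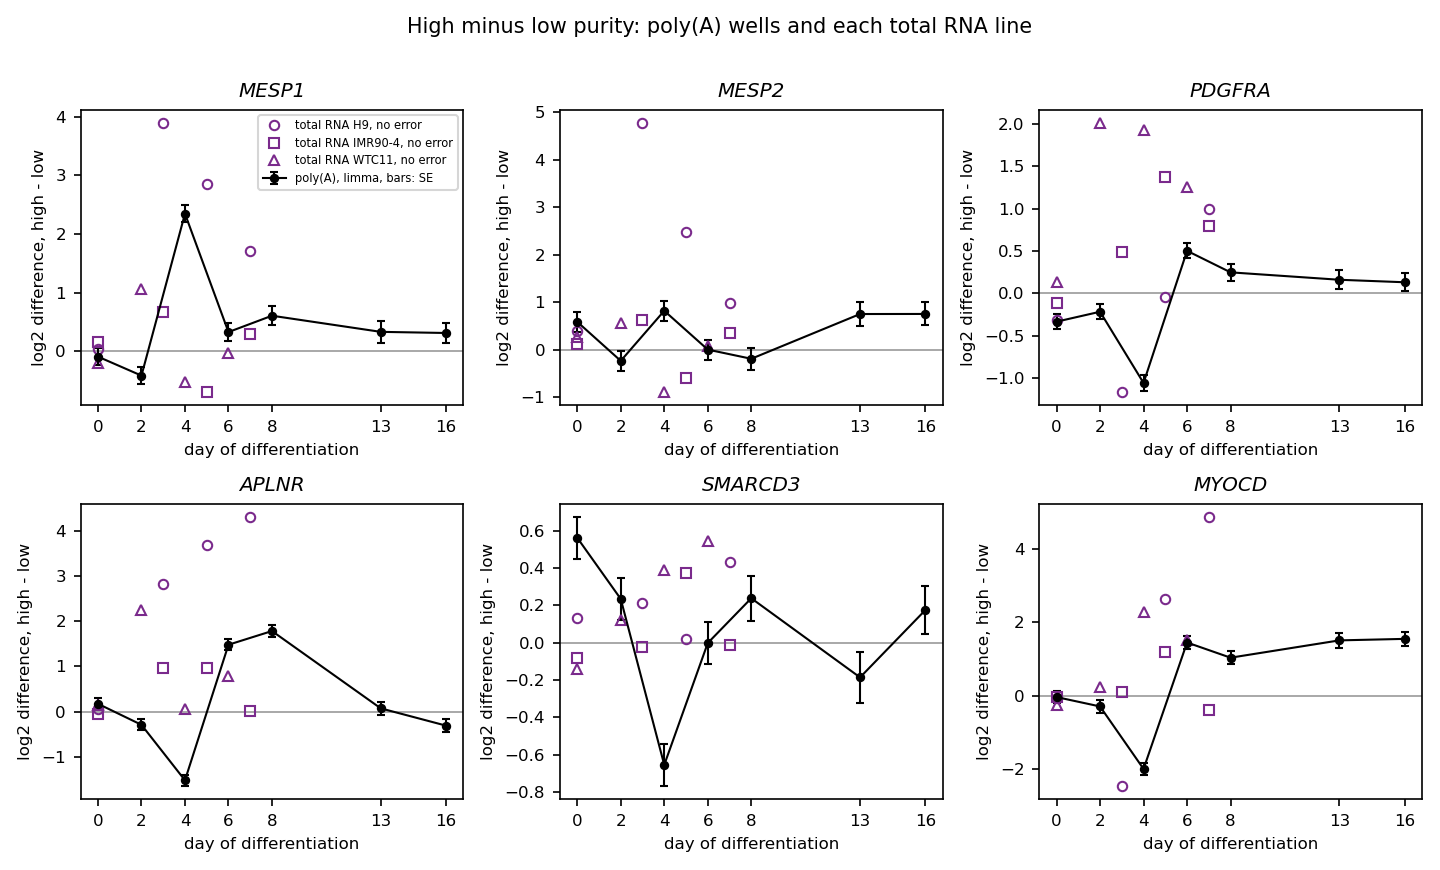
Difference between high and low purity on the log2 scale by day, for each gene, in poly(A) wells (filled points, limma on TMM-scaled TPM with 1 added, bars for the standard error) and in each total RNA line (open symbols, log2 of TPM with 1 added, single libraries without error). On day 4 MESP1 stands at 2.35 while APLNR, PDGFRA and MYOCD stand at −1.52, −1.06 and −1.99, and on day 6 APLNR and MYOCD have turned to 1.48 and 1.45.

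Counted over the 6 genes, none was called between classes on day 0 or day 2, where 1.07% and 5.32% of all genes tested were called. On day 4, 4 of 6 were called (1 higher and 3 lower in high purity wells) beside 7.84% of all genes. On day 6, 2 of 6 were called beside 8.8%, on day 8 2 of 6 beside 12.2%, on day 13 1 of 6 beside 10.8% and on day 16 1 of 6 beside 13.4%. For the steps from day 0 to 2, 2 to 4, 4 to 6, 6 to 8 and 8 to 16, the high purity class had 4, 4, 3, 1 and 1 of 6 called. The shares of all genes called in these steps were 16.7%, 13.7%, 7.96%, 5.58% and 11.4%. The low purity class had 5, 4, 3, 1 and 1 of 6 called, beside 17.9%, 16.9%, 6.61%, 3.31% and 6.39% of all genes. The step itself differed between classes for 0, 4, 4, 0 and 1 of 6 genes, beside 3.22%, 8.93%, 7.51%, 4.14% and 9.17% of all genes. The day 4 high minus low differences of the 6 genes had a median of −0.86, beside 0.00 over all genes.

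Cell type markers moved with the day 4 differences. Between classes, 7.84% of all genes tested were called on day 4 and 8.8% on day 6. The 10 cardiomyocyte markers summed to 192 to 274 TPM in high and 1811 to 2028 in low purity wells on day 4, and 9 of the 10 were called lower in high purity wells. The 10 epicardial and stromal markers summed to 107 to 172 against 709 to 736, with 5 of 10 called lower. The 7 paraxial mesoderm markers summed to 25.7 to 29.9 against 7.63 to 12.0 with 4 of 7 called higher, and the 7 pluripotency markers to 1998 to 2658 against 1191 to 1313 with 3 of 7 called higher. The 6 neuroectoderm markers summed to 311 to 414 against 63.7 to 93.7 TPM, with 1 of 2 tested called higher, while PAX6, SOX1, ZIC1 and NEUROG2 were under 1 TPM in every well. The 8 endoderm markers summed to 174 to 208 against 105 to 119, with 2 of 7 tested higher and 1 lower. Of the endothelial markers PECAM1, CDH5, TIE1 and ERG were under 1 TPM in every well of both classes on day 4, and the list of 7 summed to 209 to 273 in high and 359 to 378 TPM in low purity wells. Most of that sum was KDR, which is also in the list of factors downstream of MESP1: without it the other 6 summed to 6.70 to 9.14 in high and 10.4 to 12.9 TPM in low purity wells. On day 6, when APLNR was higher in high purity wells, 5 of the 7 endothelial markers were called higher and 1 lower there, with sums of 248 to 299 against 260.2 to 340.3 TPM, and of 37.6 to 50.2 against 31.8 to 44.1 without KDR. On that day all 7 endoderm markers tested were called higher in high purity wells (1221 to 1610 against 245 to 561 TPM over 8 markers), and 8 of 10 epicardial and stromal markers lower (477 to 649 against 2393 to 3830). The part of these cell types in the day 4 and day 6 differences was not tested.

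In total RNA, MESP1 and MESP2 were highest on day 3 in H9 and IMR90-4 and on day 4 in WTC11. At stage 2 MESP1 had 166 TPM in H9 high, 10.2 in H9 low, 99.3 in IMR90-4 high, 62.3 in IMR90-4 low, 7.69 in WTC11 high and 3.16 in WTC11 low purity cells. MESP2 had 173, 5.34, 172, 110.1, 1.66 and 0.797 TPM in the same order. The high purity library was above the low purity library in 3 of 3 lines for both genes, by 16.2-fold (H9), 1.59-fold (IMR90-4) and 2.44-fold (WTC11) for MESP1. At stage 3 the order differed: MESP1 had 16.1 against 1.35 TPM in H9, but 6.21 against 10.6 in IMR90-4 and 11.5 against 17.0 in WTC11, and MESP2 was likewise higher in high purity cells in 1 of 3 lines. WTC11 never exceeded 17.0 TPM of MESP1, so the highest values belonged to the other 2 lines and their day 3 libraries. WTC11 had no library of day 3, and the other 2 lines had none of day 2 or day 4. Line and sampling day therefore cannot be told apart, either for these levels or for the day of the highest value.

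At stage 2 APLNR was higher in the high purity library in 3 of 3 lines. There it had 657 against 92.2 TPM in H9, 440.2 against 226 in IMR90-4 and 236 against 49.3 in WTC11. At stage 3 it had 41.4 against 2.28, 61.6 against 31.2 and 44.1 against 42.4 TPM, and at stage 4 33.3 against 0.733, 74.1 against 73.1 and 63.5 against 36.4, so that WTC11 at stage 3 and IMR90-4 at stage 4 were nearly equal. PDGFRA at stage 4 was also higher in 3 of 3 lines, with 339 against 169.6 TPM in H9, 240.2 against 138 in IMR90-4 and 218 against 90.6 in WTC11. SMARCD3 at stage 4 lay between 18.0 and 33.1 TPM in all 6 libraries. MYOCD at stage 3 had 7.29 against 0.329 TPM in H9, 13.4 against 5.28 in IMR90-4 and 14.5 against 2.17 in WTC11, and at stage 4 it had 33.7 against 0.183, 48.0 against 62.8 and 54.6 against 18.5. In the H9 low purity differentiation MYOCD stood at 11.6 TPM on day 3, when no other differentiation exceeded 1.31 TPM, and it was at 0.183 TPM on day 7, when every other differentiation was at 18.5 TPM or more. PDGFRA was highest there on day 3 too, at 256 TPM.

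**Figure D3:**
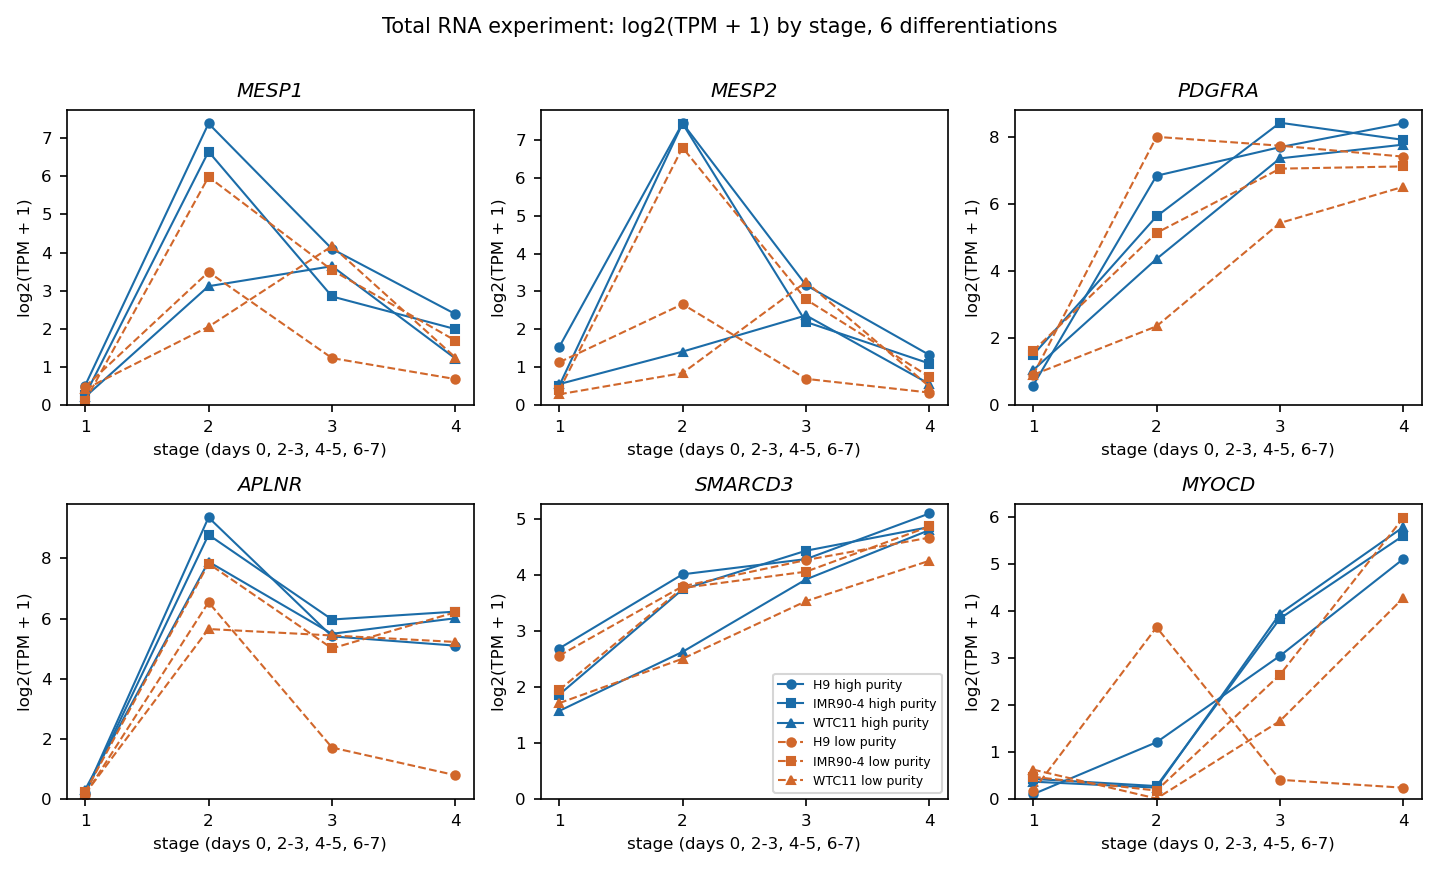
Log2 of TPM with 1 added for the 6 genes in each of the 24 total RNA libraries by stage, with 1 line per differentiation of H9, IMR90-4 and WTC11 (high and low purity). APLNR at stage 2 lies higher in the high than in the low purity library of each line (657 and 92.2 TPM in H9), and MYOCD in the H9 low purity differentiation is at 11.6 TPM on day 3 and 0.183 TPM on day 7.

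Between purity classes no gene of the 6 was called at any stage with edgeR's quasi-likelihood test on counts over 24810 genes and 3 lines, and the share of all genes called was 0% at each of the 4 stages. At an unadjusted p under 0.05 edgeR had 362, 1921, 1828 and 2916 genes at stages 1 to 4. DESeq2 called 0, 79, 56 and 203 genes and limma on TPM 0, 2, 0 and 21, none of them a gene of the 6. At stage 2 the differences were 1.99 for APLNR (SE 0.89, adjusted p = 0.64), 1.88 for MESP1 (SE 0.88, adjusted p = 0.647) and 2.11 for MESP2 (SE 1.01, adjusted p = 0.657). Without H9 they were 1.55, 0.90 and 0.72. At stage 3 MESP1 was at 0.38 (SE 0.92), and at −0.78 without H9. MYOCD at stage 3 was at 2.65 (SE 1.22, adjusted p = 0.68), and at 1.92 without H9. PDGFRA at stage 4 was at 1.01 (SE 0.49, adjusted p = 0.449).

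Across all 6 differentiations, 5 of the 6 genes rose from stage 1 to stage 2, where 25.6% of all 23848 genes were called. With edgeR the rises were 11.11 for APLNR (SE 0.85, adjusted p = 2.53e-08), 7.39 for MESP1 (SE 0.86, adjusted p = 2.07e-06), 6.03 for MESP2 (SE 1.13, adjusted p = 0.000272), 5.49 for PDGFRA (SE 0.67, adjusted p = 3.81e-06) and 1.76 for SMARCD3 (SE 0.19, adjusted p = 8.5e-07). From stage 2 to stage 3 only APLNR of the 6 was called with edgeR, and it fell by 3.16 (SE 0.60, adjusted p = 0.0027), beside 6.86% of all genes. Without IMR90-4 it was −3.35 (adjusted p = 0.0649). DESeq2 also called MESP1 (−1.955, adjusted p = 0.0121), MESP2 (−3.03, adjusted p = 0.00434) and PDGFRA (1.59, adjusted p = 0.0156) in this step. Limma on TPM added only PDGFRA (1.955, adjusted p = 0.0134). From stage 3 to stage 4 only MESP1 of the 6 was called with edgeR, and it fell by 2.53 (SE 0.67, adjusted p = 0.0286), beside 3.72% of all genes. That call was lost without H9 (−2.87, adjusted p = 0.0555), without IMR90-4 (−2.96, adjusted p = 0.207) and without WTC11 (−1.76, adjusted p = 0.0843). It was also lost with limma on TPM (−1.79, adjusted p = 0.0864), while DESeq2 kept it and added MESP2 (−3.18, adjusted p = 0.00645). MYOCD was not called at any step. Without the H9 low purity differentiation, a choice made after seeing the data, MYOCD rose by 4.70 from stage 2 to 3 (SE 0.81, adjusted p = 0.00114) and by 2.42 from stage 3 to 4 (SE 0.69, adjusted p = 0.035). PDGFRA also rose by 2.23 from stage 2 to 3 (SE 0.49, adjusted p = 0.00523).

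WTC11 was measured with both kits, and the values are set side by side without a test because the tables were normalized separately. MESP1 in high purity cells had a poly(A) mean of 4.07 TPM beside 7.69 in total RNA on day 2, and 5.62 beside 11.5 on day 4. In low purity cells it had 6.02 beside 3.16 TPM on day 2 and 0.271, from 8 reads over 4 wells, beside 17.0 on day 4. The widest gap for MESP1 thus lay on day 4 in low purity cells, where the poly(A) wells had passed their highest day and the total RNA library was at its own. The highest MESP1 value of any poly(A) well was 7.16 TPM, beside 17.0 in total RNA of WTC11 and 166 in that of H9 on day 3, a day not sampled in WTC11. MYOCD on that day in low purity cells was 62.0-fold higher in poly(A) RNA (135 beside 2.17 TPM). PDGFRA was 10.7-fold higher (452 beside 42.3), APLNR 5.64-fold higher (239 beside 42.4) and SMARCD3 4.72-fold higher (49.8 beside 10.5). On day 2 in low purity cells APLNR had 450 beside 49.3 TPM and PDGFRA 40.8 beside 4.11. In high purity cells on day 4 PDGFRA had 218 beside 164 TPM, APLNR 83.3 beside 44.1, SMARCD3 31.1 beside 14.1 and MYOCD 33.6 beside 14.5. Of 46 values with a poly(A) mean above 0, 34 were higher in poly(A) RNA as deposited and 26 when TPM was rescaled to the 18770 protein-coding genes of both tables. In the low purity pairs, both at passage 69, kit and differentiation cannot be told apart, and in the high purity pairs passage differs as well. Of the 16 low purity poly(A) wells of days 0 to 6, 0 were nearest, by correlation over genes that reached 10 TPM, to the low purity total RNA library, and all 16 were nearest to the high purity library of their day.

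**Figure D4:**
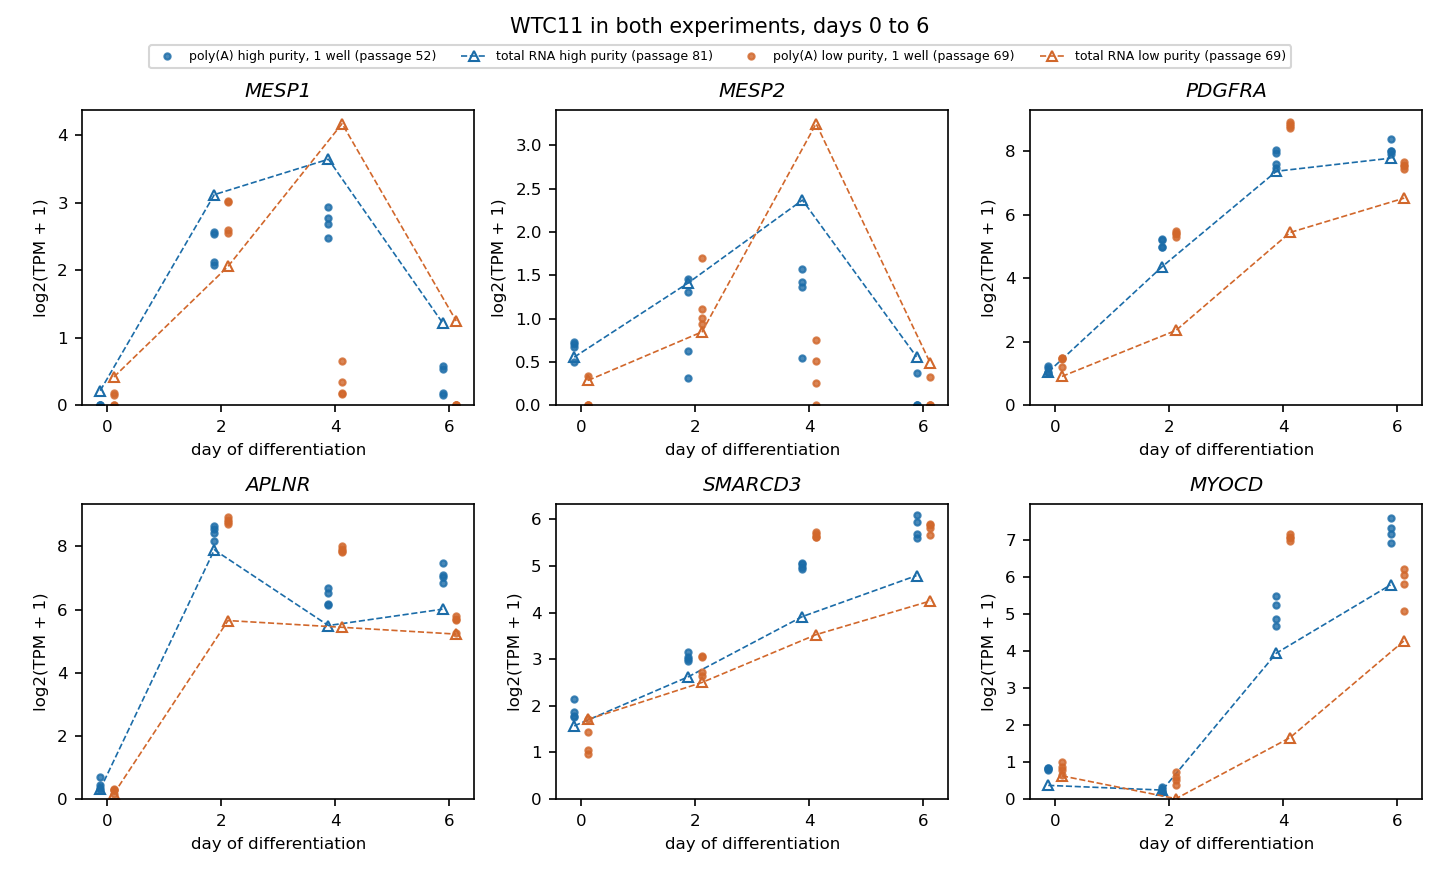
Log2 of TPM with 1 added for the 6 genes in WTC11 on days 0, 2, 4 and 6, in each poly(A) well (points) and in the single total RNA library of the same class and day (triangles joined by dashed lines). In low purity cells on day 4 MESP1 has a mean of 0.271 TPM in poly(A) and 17.0 in total RNA, and MYOCD has 135 and 2.17.

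Among primitive streak factors that act upstream of MESP1, 5 of 9 tested were higher and 1 was lower in high purity poly(A) wells on day 4, when 7.84% of all genes were called (median 1.19, all genes 0.00). EOMES, a T-box factor that activates MESP1, was higher by 2.97 and FOXH1, a NODAL pathway factor, by 1.52, while NODAL itself was lower by 2.46 (limma). Of 10 presomitic segmentation genes 3 were higher, among them RIPPLY1 (3.61) and TCF15 (1.66). Of 16 factors downstream of MESP1, 1 was higher (SNAI1, 1.05) and 2 were lower (MEF2C, −2.24, and TBX5, −1.06) on day 4, with a median of −0.48. On day 6, when 8.8% of all genes were called, 4 of 16 were higher, among them ISL1 (1.73) and NKX2-5 (1.58), and 2 were lower (HAND1, −3.52, and SNAI2, −2.12). In total RNA, 9 of 10 streak factors rose from stage 1 to stage 2, when 25.6% of all genes were called, with EOMES at 10.03 and TBXT at 9.13 (edgeR). So did 12 of 16 downstream factors, with GATA6 at 12.33 and DKK1 at 10.77, and 7 of 10 presomitic genes, with MSGN1 at 12.72. The median over all genes in that step was 0.03.

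The ligands of the 2 receptors did not all follow their receptors. On day 4, when APLNR was lower in high purity wells, APELA (the ELABELA gene) was lower by 2.18, and on day 6 APELA and APLN were higher by 1.42 and 1.01. In total RNA both ligand genes fell from stage 1 to stage 2 (APELA −3.97 and APLN −3.41) while APLNR rose. Of the PDGF ligands and the other receptor, PDGFRB was lower in high purity wells on day 4 (−1.35) and day 6 (−1.31), and on day 6 the ligand genes PDGFA and PDGFB were higher (1.21 and 1.17).

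Of 19 other BAF subunits tested, 2 were lower in high purity wells on day 4, a share near the 7.84% of all genes called, the ATPase gene SMARCA2 (−2.02) and DPF3 (−1.59), with a list median of 0.05. None of SRF and the MYOCD-related coactivator genes MRTFA and MRTFB was called on that day with limma, and SRF, which had the smallest p, was at −0.53. Of 10 muscle target genes of MYOCD and SRF, 9 were lower on day 4 (median −2.66), with the actin genes ACTC1 at −4.84 and ACTA2 at −4.13. On day 16, when MYOCD was higher in high purity wells and 13.4% of all genes were called, MYH6 was higher by 3.70. At that time 3 of the 10 were lower, among them TAGLN (−3.29) and ACTA2 (−2.88).

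The likeness of other genes was measured as Pearson's r of log2 values over the 16 poly(A) group means, which share 2 differentiations, and again over the 24 total RNA libraries. MESP1 and MESP2 had r = 0.76 over the group means and 0.94 over the total RNA libraries. SMARCD3 had r = 0.93 and 0.71 with MYOCD, and 0.85 and 0.93 with PDGFRA. Outside the 6, the genes most like MESP1 were LINC02126 (0.92, and 0.60 in total RNA), DLGAP1-AS1 (0.92 and 0.46) and LOC105374276 (0.92 and 0.34). Those most like MESP2 were FOXJ3 (0.83 and 0.60), ERICH2 (0.83 and 0.71) and SLC5A4-AS1 (0.81 and 0.60). PDGFRA was nearest to NCOA6 (0.99 and 0.89), BAHCC1 (0.98 and 0.95) and BCORL1 (0.97 and 0.94), and APLNR to LOC105369309 (0.96 and 0.95), TNFAIP8L1 (0.96 and 0.80) and FAM89A (0.94 and 0.87). SMARCD3 was nearest to MEIS2 (0.99 and 0.88), DNAJC6 (0.98 and 0.89) and FLNC (0.98 and 0.93), and MYOCD to LOC107984428 (0.98 and 0.77), MYL4 (0.98 and 0.95), an atrial and embryonic myosin light chain gene, and NEBL (0.98 and 0.88). The genes were picked for their r over the poly(A) means, so a lower r in total RNA is no finding.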

How the data were processed

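Poly(A) RNA of 56 WTC11 wells and total RNA of 24 libraries from H9, IMR90-4 and WTC11 were analysed, and groups came from the labels. The authors deposited a TPM table and a table of read counts per gene for each experiment. Per the submitters' processing notes the tools included STAR 2.5.3a and featureCounts 2.0.3; how TPM was computed, and whether counting used strand, is not given in the sources used here. Among the poly(A) counts 0 of 56 columns equalled the TPM column of the same name and 50 equalled a column with another name, so poly(A) tests used the deposited TPM. All 32 poly(A) TPM columns of days 0 to 6 were nearest to a WTC11 total RNA library of the same day, and for all 32, low purity wells included, this was the high purity library. That check therefore speaks to the day and not to the purity class, and it does not cover later days. Among groups of 2 or more wells, the nearest column lay in the same group for 51 of 55 TPM columns and 29 of 55 count columns. Whole reads were recovered from TPM for 37194 genes (100% whole within 0.05). In total RNA 24 of 24 count columns matched their TPM columns, and 36 broken lines of the deposited count table were left out. The test of the poly(A) data on TPM, and not on counts, follows from this.

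The 25664 genes that reached 1 TPM in 3 or more wells were scaled with TMM (edgeR 4.0.16), and log2 of TPM plus 1 was fitted with limma 3.58.1 in R 4.3.3 with 16 group means and 40 residual degrees of freedom. The authors' total RNA counts were fitted with edgeR's quasi-likelihood method, with line by stage means and 1 high minus low term per stage (24810 genes, 8 residual degrees of freedom), or with differentiation as a block for stage changes (23848 genes, 15). Calls needed an adjusted p under 0.05 and a log2 fold change of 1 or more in either direction. Settings tried as alternatives were the scaling, the filter, the pseudocount, DESeq2 1.42.0, edgeR on recovered reads and single libraries left out. On simulated data 100% of 200 genes changed by 2 (log2) were recovered in the day 4 comparison at a dispersion of 0.02 (23279 genes). These genes were drawn above a minimum mean read number that MESP1 and MESP2 did not reach. The recovery therefore says nothing of MESP1 and MESP2. In the stage 2 comparison between classes 100% were recovered at a dispersion of 0.02 (24958 genes) and 39% at 0.2 (25287 genes). Recovery at a dispersion above 0.2 was not tested. Nor was it tested for the 6 genes at their own read numbers and spread between lines. At stage 2 the SEs were 0.89 for APLNR, 0.88 for MESP1, 1.01 for MESP2 and 1.59 for MYOCD. The 6 genes and the lists were chosen with earlier results of these data known. From each list at most the 2 called genes with the largest change in each direction are named, and with none called the 1 with the smallest p. For each of the 6, the 3 genes with the highest correlation over the poly(A) group means are named, among genes with at least 10 TPM in a group mean.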

Additional observations from a re-analysis of the deposited data

Results flagged for a closer look

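In 5 of 66 groups of 4 poly(A) wells, 1 well lay far from the other 3 by the Dixon test. The rate by chance of about 1 group in 20 holds for continuous values and not for these 5 groups. Each of the 5 wells held 1 or 2 reads of the gene while the other wells of its group were at 0, which passes the test whenever it occurs. They were MESP1 in low purity well 4 of day 8 (0.231 TPM), and MESP2 in high purity well 1 of day 6 (0.292 TPM), low purity well 2 of day 0 (0.264 TPM), low purity well 2 of day 6 (0.255 TPM) and low purity well 2 of day 13 (0.346 TPM).

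The change from day 2 to day 4 differed between the high and low purity differentiations in limma's interaction test for MESP1 (2.76), MESP2 (1.05), APLNR (−1.23) and MYOCD (−1.70). The change from day 4 to day 6 differed for APLNR (3.00), MESP1 (−2.02), MYOCD (3.45) and PDGFRA (1.56). The change from day 8 to day 16 differed for APLNR (−2.09). Passage and differentiation cannot be told apart from purity in all 9 of these.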

How the results depend on the processing

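Between classes in poly(A) RNA, 10 of 42 differences of the 6 genes were called, against 16 with a pseudocount of 0.1, 21 with no fold threshold and 9 to 11 without a single well. Of 60 steps 27 were called, 41 with no fold threshold and 26 to 28 without a single well. Of 30 class differences in a step 9 were called, 16 with no fold threshold and 8 to 10 without a single well. Leaving out single wells kept direction and side of the threshold for 1197 values, lost 12 calls and added 9. In total RNA 7 of 18 stage changes were called, 11 with DESeq2 and 5 to 10 without a line, and 0 of 24 class differences, 0 to 0 without a line. MYOCD from stage 1 to 2 was −1.75 without H9 and 4.01 without WTC11.

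With the replicate block on the well number the counts were again 10, 27 and 9, and no call changed. Same-numbered wells did not deviate together over all genes (median r = 0.0042 over 112 pairs, −0.0512 to 0.0424, 0 over 0.1). This gives no sign of pairing, but it cannot show that the number has no meaning for single genes.

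Read counts of the poly(A) table under its own column names, which its TPM does not match, gave 3, 9 and 0 calls with edgeR and turned 30 values. Between classes MESP1 was 4.80 on day 2, PDGFRA 0.41, APLNR 1.65 and MYOCD 1.37 on day 4, MYOCD −0.12 on day 6, APLNR −3.95 and MYOCD −2.54 on day 8, and MYOCD −6.96 on day 13 and −1.95 on day 16. High purity steps became −1.45 for SMARCD3 (day 0 to 2), 0.58 for APLNR, −3.97 for MESP1 and −4.11 for MESP2 (day 2 to 4), 0.37 for MESP1 and −0.59 for MYOCD (day 4 to 6), and 7.07 for APLNR (day 8 to 16). Low purity steps became −0.48 for SMARCD3 (day 0 to 2), −1.14 for PDGFRA and −1.01 for MYOCD (day 2 to 4), 0.89 for MYOCD (day 4 to 6), and 0.64 and 3.57 for APLNR (day 6 to 8 and 8 to 16). Class differences in a step became 2.94 for APLNR, −0.094 for MESP1, −2.88 for MESP2 and 3.23 for MYOCD (day 2 to 4), −0.93 for PDGFRA, −1.31 for APLNR and −1.49 for MYOCD (day 4 to 6), and 3.498 for APLNR (day 8 to 16).

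MESP1 and MESP2 rested on few poly(A) reads, and the pseudocount of 0.1 added calls for both. The cause of the shifts with the pseudocount and DESeq2 was not tested. Under their own names, 50 of 56 count columns held the reads of a TPM column of another name. Those comparisons therefore set other wells against each other than the TPM tests did. No total RNA group had more than 1 library per line, which limits its tests.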

Other observations

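WDR93, whose RefSeq span (chr15:89690348-89743638, plus strand) overlaps the MESP1 span on the other strand, was looked at after its place was seen. On day 4 it had 12.6, 14.7, 15.9 and 23.0 TPM in high purity poly(A) wells (16.6 ± 4.5, n = 4) and 0.555 ± 0.326 (n = 4) in low purity wells. On day 2 it had 1.73 ± 0.146 TPM in high and 2.88 ± 0.415 in low purity wells (n = 4 each), and on the other days no well exceeded 0.986 TPM. WDR93 was thus high in the same day 4 wells as MESP1, and like MESP1 low in the low purity wells of that day. In total RNA it had 6.15 TPM in H9 high purity cells on day 3, 6.38 in IMR90-4 high and 4.46 in IMR90-4 low purity cells on day 3, and 2.3 and 2.01 in WTC11 high and low purity cells on day 4. Whether strand was used in counting is not given in the sources used here, so reads of overlapping exons of MESP1 and WDR93 may not be told apart.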
